A study of Mus musculus with 2 samples.

Results

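The secreted Wnt antagonists examined here were 10 genes: *Sfrp1*, *Sfrp2*, *Sfrp4*, *Sfrp5* and *Frzb* of the secreted Frizzled-related protein (SFRP) family, *Dkk1*, *Dkk2* and *Dkk3* of the Dickkopf (DKK) family, and *Wif1* and *Sost*. They were taken by name, as every probe set of the array that the platform annotation assigned to 1 gene and to 1 of these genes, which gave 19 probe sets. They are 10 of the 18193 genes named in this way. Expression was compared between mouse embryonic fibroblasts (MEFs) from wild-type (*BCL11B*+/+) and *BCL11B*-/- embryos, both of strain C57BL/6 and both taken at embryonic day 12.5. The cells of both genotypes were at passage 2 and had been kept for 12 h in a medium that starts adipogenesis. It held 1 μM dexamethasone, 0.5 mM isobutylmethylxanthine, pioglitazone at 10 μM, insulin at 10 μg/ml, ascorbic acid and 10% serum. Each genotype was measured on 1 Affymetrix array, so no p-value is given, and the number of arrays limits the precision. The labels do not say how many embryos gave the cells of an array, and undifferentiated cells were not analysed here.

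Wnt proteins bind Frizzled receptors together with the co-receptors LRP5 and LRP6, which stabilizes β-catenin and switches on genes through TCF/LEF factors. SFRP proteins carry a cysteine-rich domain like that of the Frizzled receptors and bind Wnt proteins outside the cell, and WIF1 also binds Wnt proteins directly. DKK1, DKK2 and the osteocyte product sclerostin, encoded by *Sost*, bind the LRP co-receptors instead, and DKK1 and DKK2 do so together with Kremen proteins. DKK3 is a distant DKK relative that is not a typical Wnt inhibitor. Wnt/β-catenin signaling holds preadipocytes undifferentiated, which is why its antagonists are studied in adipogenesis.

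The RefSeq promoter table of GRCm38.p6 held 7 of the 10 genes, *Frzb*, *Sfrp2*, *Sfrp5*, *Dkk1*, *Dkk2*, *Wif1* and *Sost*. The 250 bases before the transcription start are shown for *Dkk2*, the member with the largest difference between genotypes, for *Dkk1*, which shares its family and its TATA box, and for *Sfrp2*, which differed in the same direction as *Dkk2*. Each runs 5′ to 3′ along the gene's strand, and capitals mark motif matches. They lie at chr3:132085042-132085291 on the plus strand for *Dkk2*, at chr19:30549497-30549746 on the minus strand for *Dkk1* and at chr3:83766071-83766320 on the plus strand for *Sfrp2*.
Dkk2: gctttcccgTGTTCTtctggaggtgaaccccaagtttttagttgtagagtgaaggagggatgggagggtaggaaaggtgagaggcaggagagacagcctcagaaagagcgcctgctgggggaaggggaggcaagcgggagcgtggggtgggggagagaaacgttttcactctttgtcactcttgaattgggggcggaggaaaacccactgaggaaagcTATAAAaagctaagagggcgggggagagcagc
Dkk1: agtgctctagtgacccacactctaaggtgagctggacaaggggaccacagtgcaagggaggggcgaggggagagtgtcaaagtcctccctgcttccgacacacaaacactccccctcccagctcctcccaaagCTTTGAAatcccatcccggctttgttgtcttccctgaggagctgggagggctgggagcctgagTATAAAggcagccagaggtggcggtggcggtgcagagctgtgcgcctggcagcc
Sfrp2: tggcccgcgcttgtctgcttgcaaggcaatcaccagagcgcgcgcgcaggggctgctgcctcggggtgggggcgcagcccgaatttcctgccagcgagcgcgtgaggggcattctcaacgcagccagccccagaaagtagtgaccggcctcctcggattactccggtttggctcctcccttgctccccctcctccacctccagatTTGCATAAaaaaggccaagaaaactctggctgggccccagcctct

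The TATA box and motifs of factors on which the medium or the Wnt pathway acts were searched on both strands of these 250 bases. The TATA box motif TATAAA was found in 3 of the 7 promoters, at -32 to -27 in *Dkk2*, at -54 to -49 in *Dkk1* and, on the opposite strand, at -232 to -227 in *Wif1*, where -1 is the base before the start. It was held by 12.4% of all 32851 promoters of this length. The glucocorticoid receptor hexamer AGAACA was found in 1 promoter, *Dkk2*, at -241 to -236 on the opposite strand, against 16.1% of all promoters. The C/EBP motif TTGCNNAA was found in *Sfrp2* alone at -45 to -38, against 9.56% of all promoters. The TCF/LEF motif CTTTGAT was in none of the 7, and its variant CTTTGAA was in *Dkk1* at -117 to -111. Of all promoters 3.21% held the first and 4.46% the variant. The cAMP response element TGACGTCA was in none of the 7 and in 1.55% of all promoters. These matches describe letters in a short window and not sites that a factor was shown to bind. The window was rich in G and C in all 7, from 55.6% in *Dkk2* to 64.4% in *Frzb*, with a median of 52.4% over all promoters.

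The mRNA of *Bcl11b*, the targeted gene, was lower in *BCL11B*-/- MEFs on all 4 of its probe sets, by 1.18 to 1.57 on the log2 scale. The deposited values are log2 expression after robust multi-array averaging, with an array median of 5.28 for each genotype. Where a gene had several probe sets the brightest stood for it, and it counted as measured if the mean of both arrays was at least 5, which 12331 genes met. Differences are *BCL11B*-/- minus *BCL11B*+/+, and 1.5-fold was the size at which a gene was counted. The difference between genotypes varied among the probe sets of 1 gene with an SD of 0.145 on the log2 scale, pooled over 5543 genes. It is called the SD between probe sets below and does not describe how far their levels lie apart. This SD is a yardstick for the reading of a gene on these arrays and holds no variation between cultures. As a check of the cell type, 12 of 12 fibroblast genes were measured. So were 8 of 8 smooth muscle, 7 of 7 mesothelial and 10 of 11 macrophage genes. But 12331 of all 18193 named genes were measured, and the filter of 5 lies under the array median. By this rule 4 of 6 neural and 4 of 6 epithelial genes were measured too. Being measured therefore does not tell which cell types the cultures held, nor set the cells apart as fibroblasts alone. The cultures also differed in *Xist*, by −5.99, and in 3 Y-linked genes, by 0.81 to 1.08. In *BCL11B*+/+ MEFs *Xist* read 10.80 beside the Y-linked *Eif2s3y* at 7.89, *Kdm5d* at 6.84 and *Uty* at 6.80. In *BCL11B*-/- MEFs *Xist* was under 5 on all 3 of its probe sets. The wild-type array thus read as a mix of female and male cells, which takes more than 1 embryo. The *BCL11B*-/- array read as male cells. The share of each sex therefore cannot be told apart from genotype in any value that follows.

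Of the 10 antagonists, 8 were measured and *Dkk1* and *Sost* were not. *Dkk2* was at least 1.5-fold lower in *BCL11B*-/- MEFs, none of the 8 was at least 1.5-fold higher, and 7 were neither. Among all 12331 measured genes 1.75% were lower and 1.61% were higher by this rule. The median difference of the 8 was 0.059, with 5 above and 3 below 0, and the median over all measured genes was 0. The central 95% of all measured genes lay between −0.48 and 0.50, and *Dkk2* was the 1 member outside that range.

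**Figure D1:**
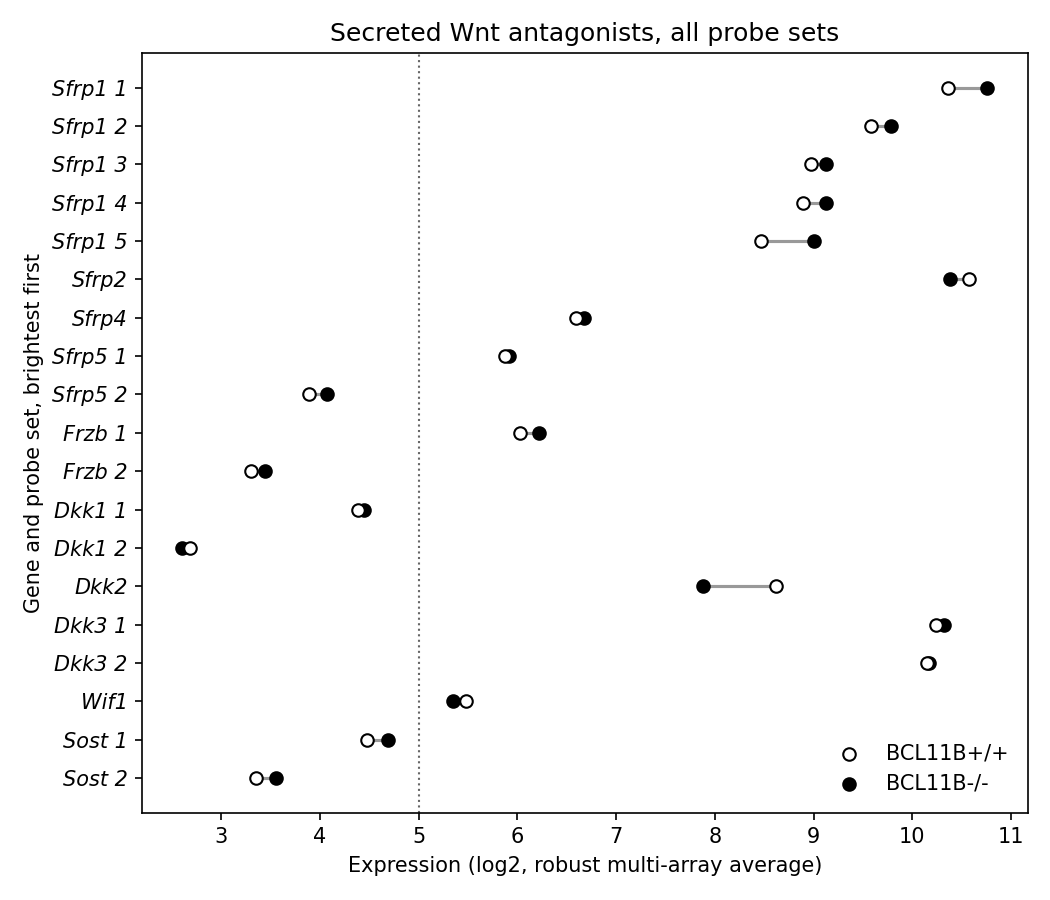
Log2 expression (horizontal axis) on each of the 19 probe sets of the 10 secreted Wnt antagonists (vertical axis, numbered from the brightest where a gene has several). Open circles are BCL11B+/+ and filled circles BCL11B-/- MEFs, and a single array per genotype leaves no error bar. The dotted line is the level of 5 used as a filter, and the longest line joins the circles of Dkk2, at 8.62 and 7.88.

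*Sfrp1* was higher in *BCL11B*-/- MEFs on every one of its 5 probe sets. On the brightest it read 10.36 in *BCL11B*+/+ and 10.76 in *BCL11B*-/- MEFs, a difference of 0.40 or 1.32-fold. The next 3 by brightness read 9.58 and 9.79, 8.97 and 9.13, and 8.89 and 9.12, in the same order of genotypes. The dimmest read 8.47 and 9.00, which is the largest of the 5 differences at 0.53 or 1.44-fold. No probe set of *Sfrp1* reached 1.5-fold, and the mean over the 5 was 0.31. The brightest probe set's difference was 2.76 times the SD between probe sets of a gene, and 489 measured genes (3.97%) were as high or higher. Of the 5 probe sets, 3 were designed on the same sequence entry, so they do not sample the transcript independently. Among 330 genes with 5 or more measured probe sets, 9.7% were higher in *BCL11B*-/- MEFs on all of them.

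The other SFRP genes differed less. *Sfrp2* had 1 probe set, at 10.57 in wild-type and 10.38 in *BCL11B*-/- MEFs. It was the 1 gene of the family with the lower value in *BCL11B*-/- MEFs, with a difference of −0.19 or 1.14-fold, and 12.9% of measured genes were as low or lower. *Sfrp4* read 6.59 and 6.68 on its 1 probe set, a difference of 0.085 that is below the SD between probe sets. *Sfrp5*, which is known as an adipokine, read 5.87 and 5.91 on the brighter of its 2 probe sets, a difference of 0.043. Its dimmer probe set, at 3.89 and 4.07, was under the filter. *Frzb*, also called Sfrp3 and known from developing cartilage, read 6.03 in wild-type and 6.22 in *BCL11B*-/- MEFs on its brighter probe set, 1.14-fold higher. Its second probe set, designed on the same sequence entry, read 3.31 and 3.45. Over the 5 measured SFRP genes the median difference was 0.085, with 4 above 0 and 1 below.

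*Dkk2* was the member that differed most between the genotypes. Its only probe set read 8.62 in *BCL11B*+/+ and 7.88 in *BCL11B*-/- MEFs, which is 1.68-fold lower, a log2 difference of −0.75. That is 5.14 times the SD between probe sets of a gene, and 128 measured genes (1.04%) were as low or lower. With a single probe set there was no second reading of the transcript on the array. The study ranked genes by the weighted average difference, which multiplies a difference by the relative expression level and so favors abundant transcripts. By a score of this kind computed here over all named genes, *Dkk2* had rank 128 from the lowest end. *Sfrp1*, the highest measured member by difference, had rank 211 from the highest end.

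The other DKK genes did not differ by this much. *Dkk3* read 10.24 in wild-type and 10.32 in *BCL11B*-/- MEFs on the brighter of its 2 probe sets and 10.14 and 10.17 on the other. Both probe sets of *Dkk3* thus lay within 1.06-fold between the genotypes, at 0.074 and 0.026 on the log2 scale. *Dkk1*, an antagonist known to be induced early in adipogenesis, read 4.38 and 4.45 on its brighter probe set and 2.69 and 2.61 on the other. Both were under the filter in both genotypes and differed in opposite directions, so no difference of *Dkk1* could be read at this level. Values this low hold mostly background, and a change in a scarce transcript may not be seen. No test of the difference between *Dkk2* and its relatives was possible with 1 array per genotype.

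*Wif1* and *Sost* were at or under the lower end of the measured range. *Wif1* read 5.48 in wild-type and 5.35 in knockout MEFs on its 1 probe set, a difference of −0.13 that is smaller than the SD between probe sets. That probe set carries an _a suffix, which marks probes shared by several transcripts of a gene. *Sost* read 4.48 and 4.69 on its brighter probe set and 3.35 and 3.56 on the other. Its 2 probe sets were designed on the same sequence entry and were both under the filter, so their differences of 0.21 and 0.20 were not counted.

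**Figure D2:**
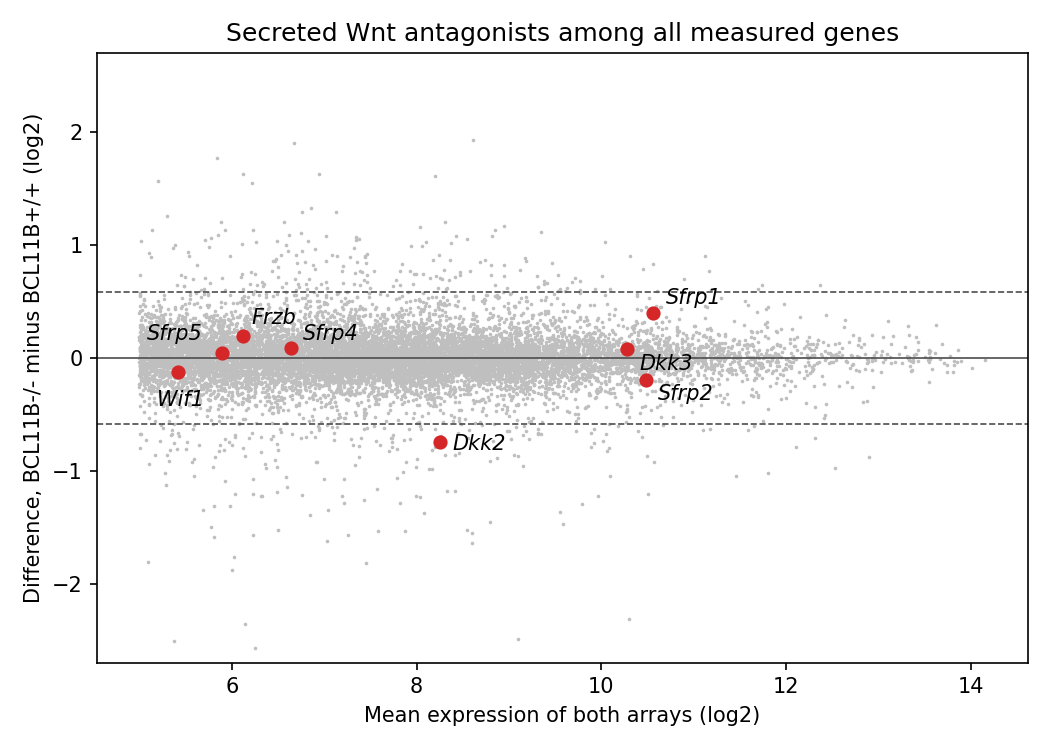
Difference in log2 expression, BCL11B-/- minus BCL11B+/+ (vertical axis), against the mean of both arrays (horizontal axis, log2) for the 12331 measured genes, with the 8 measured antagonists in red and named. Dashed lines mark 1.5-fold, 1 gene (*Xist* at −5.99) lies below the plot, and Dkk2 at −0.75 is the 1 red point outside the dashed lines.

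The proteins on which DKK and SFRP antagonists act were set beside them from lists of the pathway. Of the LRP co-receptors and Kremen proteins 4 were measured, and none was 1.5-fold apart. *Lrp5* read 6.34 in *BCL11B*+/+ and 5.97 in *BCL11B*-/- MEFs, a difference of −0.37. *Lrp6* differed by −0.27 and −0.18 on its 2 probe sets. *Kremen1*, a DKK receptor, differed by −0.16, −0.16 and −0.17 on its 3 probe sets, of which 1 was at or above the filter. *Lrp4*, to which sclerostin binds, differed by 0.080 at a mean of 5.27. *Lrp5*, *Lrp6* and *Kremen1* were thus lower and *Lrp4* higher in *BCL11B*-/- MEFs, each by less than 1.5-fold. Among 14 Frizzled and other Wnt receptors none was 1.5-fold higher or lower. Their median was 0.070, from *Fzd4* with −0.28 to *Fzd9* with 0.55.

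Other extracellular inhibitors outside the 10 genes were represented by a list of 9, of which 6 were measured. None was higher, 1 was lower and 5 were neither, with a median of −0.19. The lower gene was *Sostdc1*, a relative of *Sost* that also binds LRP co-receptors, at 6.64 in *BCL11B*+/+ and 5.32 in *BCL11B*-/- MEFs, 2.49-fold lower. Its second probe set read 5.29 and 4.73, 1.47-fold lower. The highest of the list was *Notum*, which encodes an enzyme that removes the lipid from Wnt proteins, with 0.16. *Apcdd1*, a membrane-bound inhibitor, differed by −0.33 and *Igfbp4* by −0.095. *Dkk4*, *Dkkl1* and *Cer1* were not measured.

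Wnt ligands, which SFRP proteins and WIF1 bind, were measured for 13 of 19 genes, with 1 higher, 1 lower and 11 neither and a median of 0.14. *Wnt5b* was higher by 0.61 and *Wnt4* was lower with −0.63, and each had a second probe set short of 1.5-fold, at 0.43 and −0.45. Of 6 measured R-spondins and their partners, *Rspo2* was higher by 1.05 and *Lgr5* was lower with −2.49, each with a much smaller difference on a dimmer probe set, 0.048 and −0.35. Of 7 measured β-catenin target genes, *Bambi* was lower with −0.72 and 6 were neither, with a median of −0.13. This target list is not the study's set. It does not hold *Wisp2* and *Osteopontin*, downstream genes of the pathway that the study reported as higher in *BCL11B*-/- MEFs from these arrays. The study listed further downstream genes from the arrays, some higher and some lower, and also measured *Wisp2* and *Osteopontin* by real-time PCR. The ligand, R-spondin and target groups share the same 2 arrays with the antagonists, and no test sets them apart from each other.

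**Figure D3:**
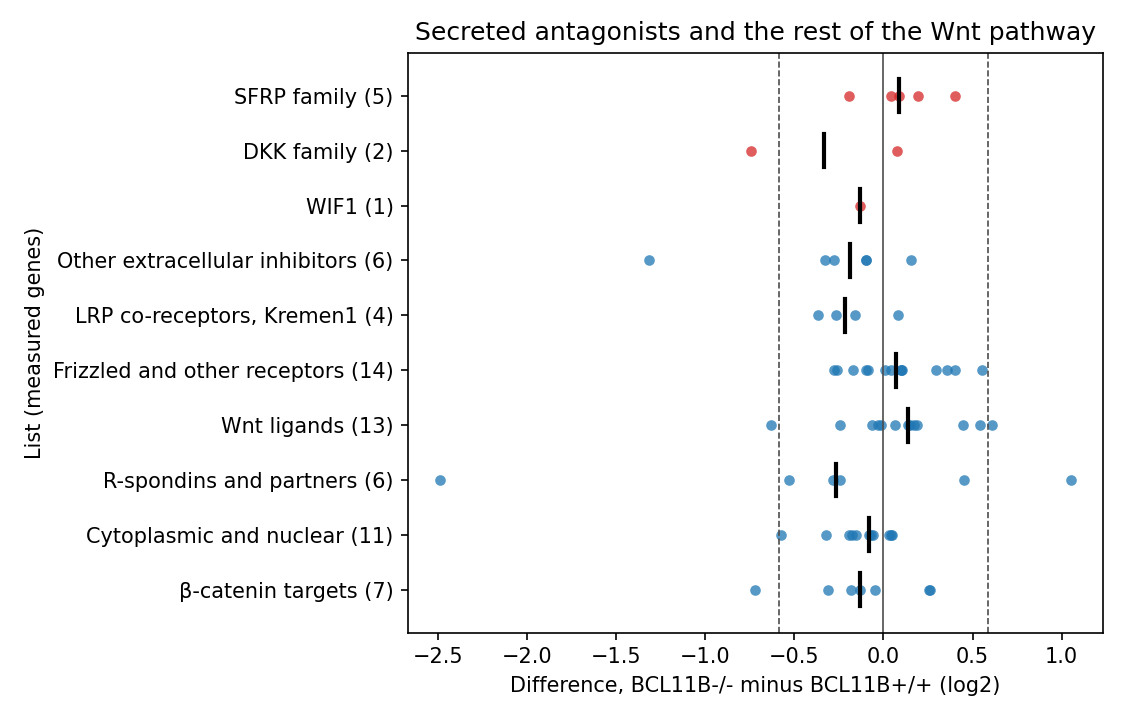
Difference in log2 expression, BCL11B-/- minus BCL11B+/+ (horizontal axis), for measured genes of the antagonist families (red) and of other Wnt pathway lists (blue), 1 point per gene, with the number of genes in brackets on the vertical axis. Black bars are list medians and dashed lines mark 1.5-fold. Dkk2 at −0.75 is the 1 red point past a dashed line, and Sostdc1 at −1.31 and Lgr5 at −2.49 lie farther to the left.

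The 2 cultures also differed in markers of other cell types. Chondrocyte genes were higher by 1.5-fold or more in *BCL11B*-/- MEFs in 6 of 7 measured cases and lower in none, with a median of 1.03. Of this list *Matn1* was under the filter. The summed signal of the measured genes on the linear scale was 2114 in *BCL11B*+/+ and 4032 in *BCL11B*-/- MEFs. That sum rested mostly on *Col11a1*, the brightest of them, at 10.67 and 11.57. The largest differences were *Comp* at 1.63, *Col2a1* at 1.29, *Col9a1* at 1.11 (0.42 on its dimmer probe set) and *Hapln1* at 1.03. *Frzb*, the antagonist known from cartilage, differed by 0.19 beside them. Macrophage genes were lower in 8 of 10 measured cases and higher in none. Their summed signal was 4125 and 2364, of which *Lyz2* gave the largest part. The largest of these differences were −0.95 for *Laptm5*, −0.92 for *Tyrobp*, −0.92 for *Lyz2* and −0.88 for *C1qa*, though *Laptm5* differed by −0.36 as the mean over its 5 probe sets. Smooth muscle genes were higher in 5 of 8 cases and lower in none. Their summed signals were 6279 and 10057, of which *Acta2* gave the largest part. By difference these genes were led by *Myl9* with 1.08, *Tagln* with 0.83, *Lmod1* with 0.71 and *Acta2* with 0.65. *Acta2* differed by 0.19 as the mean over its 3 probe sets, but the dimmer ones, at means of 3.86 and 3.71, were under the filter. Among 7 mesothelial genes the 2 that were lower were *Lrrn4* with −0.62 and *Gpm6a* with −0.61, with summed signals of 3389 and 2598. Of the osteoblast and osteocyte genes 2 were measured, *Dlx5*, which was higher at 5.66 in wild-type and 6.79 in *BCL11B*-/- MEFs, a difference of 1.13, and *Sp7*, which differed by 0.18. The others with a probe set, *Ibsp*, *Alpl*, *Dmp1* and *Phex*, were under the filter, as was *Sost*. *Runx2*, *Bglap* and *Spp1*, which encodes osteopontin, had no probe set assigned to that symbol alone and were not read here. The study reported *Osteopontin* as higher in *BCL11B*-/- MEFs on its arrays. Past 1.5-fold were also *Tubb3*, 1 of 4 measured neural genes, with 0.61, and *Actc1*, the 1 measured skeletal muscle gene, with −0.81. Among fibroblast genes *Dcn*, *Lum* and *Thy1* differed by −0.88, −1.21 and −0.65, none was higher, and 9 of 12 were neither. Fewer cells of a type and less RNA per cell cannot be told apart in such samples, and the part of these markers in the lower *Dkk2* and higher *Sfrp1* values was not tested.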

How the data were processed

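Total RNA of *BCL11B*+/+ and *BCL11B*-/- MEFs was hybridized to Affymetrix mouse genome arrays, 1 per genotype. The authors quantified the scans by robust multi-array averaging (RMA) in R (version 3.0.3 in the submitters' processing notes) and deposited log2 expression values after background correction, normalization between arrays and summary of probes. This makes the arrays' distributions alike, so a change in total mRNA would not be seen, and it draws differences of dim genes toward 0. The sources used here name no genome build for the array values, so the only coordinates given are those of the RefSeq promoters (GRCm38.p6).

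Of 45101 probe sets 34945 besides controls named 1 gene, 932 several and 9160 none. All 19 probe sets of the 10 members named 1 gene. Genes named in the text were all members, *Bcl11b* and the LRP and Kremen receptors. Of each list those at least 1.5-fold apart were named too, at most 4 by size for cell types. A pathway list without such a gene was represented by its highest and lowest gene. The endothelial and epithelial lists held no such gene, and none of their genes was named. *Igfbp4*, *Apcdd1*, *Notum*, *Sp7*, *Adipoq*, *Col11a1* and the genes said to be under the filter were named after their values were seen. *Runx2*, *Bglap* and *Spp1* were named for lack of a probe set of their own, and *Wisp2* and *Osteopontin* from the study. The members and lists were chosen with earlier results of these data known. With 1 array per genotype no test was made. The counting rule was tried on simulated differences whose noise was the SD between probe sets, without variation between cultures. The motif search was tried on short known sequences. Alternatives were other choices of probe set, filter and fold, a lowess fit with a span of 0.4, and median centring. Python 3.11.15, numpy 2.4.6, pandas 2.3.3, statsmodels 0.14.6 and matplotlib 3.10.9 were used.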

Additional observations from a re-analysis of the deposited data

How the results depend on the processing

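*Dkk2* was the 1 measured member past 1.5-fold under every choice of probe set, filter and normalization tried. Its own value could hardly change, since it has 1 probe set at a mean of 8.25, above both filters, and the median subtracted was 0. After the lowess fit it was −0.74. At 1.2-fold 1 member was higher, *Sfrp1*, and at 2-fold 0 members were lower. Both follow from the size rule. Over all genes 1086 were higher and 962 lower at 1.2-fold, 43 and 62 at 2-fold, and 112 and 124 with a mean of at least 7, which tests fewer genes. The members' median of 0.059 ranged from −0.060, with a mean of at least 7 and 4 members left, to 0.074. It was −0.040 for the mean over all probe sets, with 6 members left, so its sign is not stable. Many of the 49 alternative values of single members could not move. The median subtracted was 0, and *Sfrp2*, *Sfrp4*, *Dkk2* and *Wif1* offer no other choice of probe set. Of the 49 values 48 moved by less than the SD between probe sets, which therefore says little about stability. The other was *Dkk1*, under the filter, which went from 0.067 to −0.080 on its dimmer probe set and to −0.0063 as the mean of both. Lowess moved no value by more than 0.016. No paired analysis was possible because each genotype has 1 array. Signal over background limits *Dkk1*, *Sost*, *Wif1* and the dimmer probe sets of *Sfrp5* and *Frzb*.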

Other observations

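Intracellular genes of the Wnt pathway, which the antagonists do not bind, were read on the same arrays. Of 11 measured cytoplasmic and nuclear components none was 1.5-fold higher or lower, with a median of −0.082. *Tcf7l1*, a TCF/LEF factor that mostly represses, was the lowest at 9.64 in *BCL11B*+/+ and 9.07 in *BCL11B*-/- MEFs, a difference of −0.57. *Csnk1a1*, a kinase of the β-catenin destruction complex, was the highest with 0.050. *Wls* and *Porcn*, which are needed to release Wnt proteins, differed by 0.13 and −0.051.

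Adipocyte genes were lower by 1.5-fold or more in 3 of 6 measured cases and higher in none. *Lpl* differed by −0.97, *Cd36* by −0.71 and *Pparg*, the nuclear receptor that pioglitazone binds, by −0.71, and *Adipoq* was the highest with 0.56.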
